A study of Mus musculus with 6 samples.

Results

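The cytosolic heat shock genes described here are Hsf1, which encodes the transcription factor of the heat shock response, and 9 genes of cytosolic chaperones and their partners, Hspa1a, Hspa1b, Hspa8, Hsp90aa1, Hsp90ab1, Dnajb1, Hsph1, Hspb1 and Bag3. They were found through the RefSeq accession that the array files give for each probe. All 10 genes were on the array, with 16 of the 56605 probes, among 22911 genes that could be named. Each of the 10 had a probe well above background on all 6 arrays, so none was lost to the filter on dim probes.

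The livers came from 3 male mice that lacked Elovl6 in the liver only (liver-specific knockout, LKO 1 to 3) and 3 male controls, titled as floxed mice (control 1 to 3). Elovl6 is the elongase that makes stearate from palmitate. Both groups had been on the high-sucrose diet D11725 for 14 days and had gone without food for 4 hours when the liver was frozen, and each mouse had its own one-colour Agilent array. The sources used here do not give the Cre driver, the strain or the age. Whole liver was measured, so fewer cells of a type and less RNA per cell cannot be told apart. The values below are signals divided by the 75th percentile of the same array, called scaled signal, and they can be compared between mice but not between genes, since probes differ in brightness.

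In unstressed cells HSF1 is held inactive by chaperones. When proteins unfold, in heat or after other injury, HSF1 is freed, forms trimers and binds heat shock elements, which are inverted repeats of GAA, in front of chaperone genes. HSP70 proteins then bind unfolded chains with the help of J-domain proteins such as DNAJB1 and nucleotide exchange factors such as HSPH1 and BAG3, HSP90 completes the folding of many kinases and receptors, and small heat shock proteins such as HSPB1 hold unfolded chains in reserve. In liver, the inducible members are known to follow body temperature and handling of the tissue as well as disease.

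Short cores that resemble part of a heat shock element can be read in the sequence before several of these genes. RefSeq promoter windows of the build GRCm38.p6, each running from 250 bases before to 50 bases after a gene's start, were at hand for 6 of the 10 members, in 8 windows. The 8-letter cores GAANNTTC and TTCNNGAA, each its own reverse complement, were searched, and 5 of these 6 genes had at least 1 of them, Dnajb1 being without either in its 2 windows. Of all 32851 windows, 15.1% held at least 1 core, 7.86% GAANNTTC and 8.52% TTCNNGAA. The stretches below are shown because they hold the core upstream of 4 members, with the core in capitals. They lie at chr17:34959299-34959378 for Hspa1b, minus strand, chr5:135887779-135887858 for Hspb1, plus strand, and chr5:149636337-149636416 for Hsph1, minus strand, and each is 80 bases long.
Hspa1b: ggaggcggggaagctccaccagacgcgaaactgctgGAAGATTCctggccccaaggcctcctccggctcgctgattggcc
Hspb1: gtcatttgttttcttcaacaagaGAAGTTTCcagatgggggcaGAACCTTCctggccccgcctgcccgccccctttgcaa
Hsph1: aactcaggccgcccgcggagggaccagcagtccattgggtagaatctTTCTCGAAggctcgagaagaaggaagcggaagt
The neighbouring copy Hspa1a, at chr17:34972217-34972296 on the minus strand, has the same 80 bases as Hspa1b, and the 250 bases before the start are the same at 247 positions. In both genes the core begins 104 bases before the start, and Hspb1 has 2 cores, beginning 117 and 97 bases before it. Hsph1 has its upstream core 33 bases before the start and others after it. The longer element of 3 units (GAA, any 2 letters, TTC, any 2 letters, GAA), which contains both cores and was searched on both strands, had no match in the windows of Hspa1a, Hspa1b, Dnajb1, Hspb1 and Bag3. It matched in Hsph1 alone, 36 bases after the first start and 15 after the second, and in 0.603% of all windows. In Bag3 the only core began 42 bases after the start. These matches describe letters and not binding, which was not measured.

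Elovl6, the deleted gene, had scaled signals of 0.228, 0.334 and 0.364 in LKO 1, 2 and 3, against 21.3, 43.0 and 22.8 in control 1, 2 and 3, a log2 change of -6.51 ± 0.30 (SE, n = 3 per group, limma adjusted p = 0.00279). Each array matched its label. All 8 hepatocyte markers examined, among them Alb, were well above background on every array, with a median log2 change of 0.06. The 6 arrays shared 1 slide and 1 scan, the share of spots well above background was between 52.1% and 56.6%, and the number of arrays limits the precision. Nothing in the labels beyond the mouse number tells replicates apart. With 1 array per mouse, the p-values rest on a spread within groups in which differences between mice and between arrays cannot be told apart.

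The comparison of LKO with control livers asks whether liver RNA of the cytosolic heat shock genes differs on this diet when the elongase is missing. No member changed past the threshold. In the limma fit over 14171 genes, 0 of the 10 members had an adjusted p under 0.05, against 0.0141% of all genes, and 1 member, Hspb1, had an unadjusted p under 0.05, against 11.2% of all genes. By direction, 1 member was higher, against 5.56% of all genes, and 0 were lower, against 5.6%. In 0 of 10 members were the groups free of overlap, against 17.3% of all genes, made up of 8.11% higher and 9.21% lower in LKO. That count turned with the scaling. Hspb1 was higher without overlap after quantile normalization (8.59% of all genes), after normexp (9.43%) and in the authors' value table (9.19%), where Hsp90ab1 was as well. The same held for Hspb1 without LKO 1 (16.4%) and for Hsp90ab1 without LKO 3 (12.7%). Higher mean log2 values in LKO livers were seen for 6 members and lower ones for 4, where 50.8% of all genes were higher and 49.2% lower. The median log2 change of the members was 0.09, with 0.0031 for all genes tested, and their changes ran from -0.28 for Hspa1a to 0.64 for Hspb1.

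Hsf1, the transcription factor, was nearly level across the mice. Its scaled signal was 1.31, 1.39 and 1.30 in LKO livers and 1.27, 1.39 and 1.39 in control livers. The groups overlapped, and the ratio of the highest to the lowest mouse was at percentile 2.17 of the genes tested. The log2 change was -0.01 with a 95% interval from -0.21 to 0.18 (limma adjusted p = 0.971).

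Hspa1a and Hspa1b encode the stress-inducible HSP70 and are near-identical copies, so signal of one copy on the other's probe could not be separated. Hspa1a had scaled signals of 0.133, 0.345 and 1.47 in LKO 1, 2 and 3, against 1.67, 0.337 and 0.212 in control 1, 2 and 3. One mouse of each group, LKO 3 and control 1, stood far above the rest, and LKO 1 was the lowest of all 6. Hspa1b had 0.628, 1.14 and 2.37 in LKO 1, 2 and 3, against 3.84, 0.866 and 0.661 in control 1, 2 and 3, and thus put the 6 mice in exactly the same order as Hspa1a. The highest mouse was 12.6-fold above the lowest for Hspa1a and 6.11-fold for Hspa1b, whereas the median gene spanned 1.33-fold. The spread within groups, a pooled SD of 1.66 and 1.18 on the log2 scale, put Hspa1a at percentile 99.9 and Hspa1b at percentile 99.7 of all genes tested. Between the groups the log2 change was -0.28 for Hspa1a, with a 95% interval from -2.77 to 2.22, and -0.12 for Hspa1b, with an interval from -1.91 to 1.66 (limma adjusted p = 0.947 and 0.969). These intervals are wide enough to hold several-fold changes in either direction.

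Hspa8 encodes the constitutive HSP70 (HSC70), which is made without stress. It had scaled signals of 58.4, 62.1 and 76.1 in LKO 1, 2 and 3, against 85.3, 53.3 and 54.0 in control 1, 2 and 3. Control 1 and LKO 3 were again the highest pair, over a narrower range of 1.60-fold. The log2 change was 0.06, with a 95% interval from -0.44 to 0.55 (limma adjusted p = 0.945). Its 4 probes gave log2 changes between 0.03 and 0.06 and all had control 1 highest and LKO 3 next.

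Dnajb1, the J-domain partner that delivers clients to HSP70, had scaled signals of 6.80, 7.57 and 11.4 in LKO 1, 2 and 3, against 17.4, 6.65 and 6.68 in control 1, 2 and 3. Hsph1, the HSP110 protein that exchanges nucleotide on HSP70, had 3.50, 5.01 and 5.90 in LKO 1, 2 and 3, against 7.38, 2.61 and 3.48 in control 1, 2 and 3. For both, control 1 was the highest mouse and LKO 3 the second, and the other controls were low. The log2 change was -0.13 for Dnajb1 (95% interval from -1.10 to 0.83) and 0.21 for Hsph1 (95% interval from -0.73 to 1.14), with limma adjusted p = 0.932 and 0.886. Of the 3 Hsph1 probes, 2 were measured, with log2 changes of 0.21 and 0.25, and the third was not well above background on any array.

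Bag3, the exchange factor that links HSP70 to HSPB proteins and to autophagy, had scaled signals of 6.30, 9.34 and 9.22 in LKO 1, 2 and 3, against 11.3, 5.54 and 6.11 in control 1, 2 and 3. Both LKO 2 and LKO 3 lay above the 2 lower controls, with control 1 above all. The log2 change was 0.17, with a 95% interval from -0.54 to 0.87 (limma adjusted p = 0.877).

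**Figure D1:**
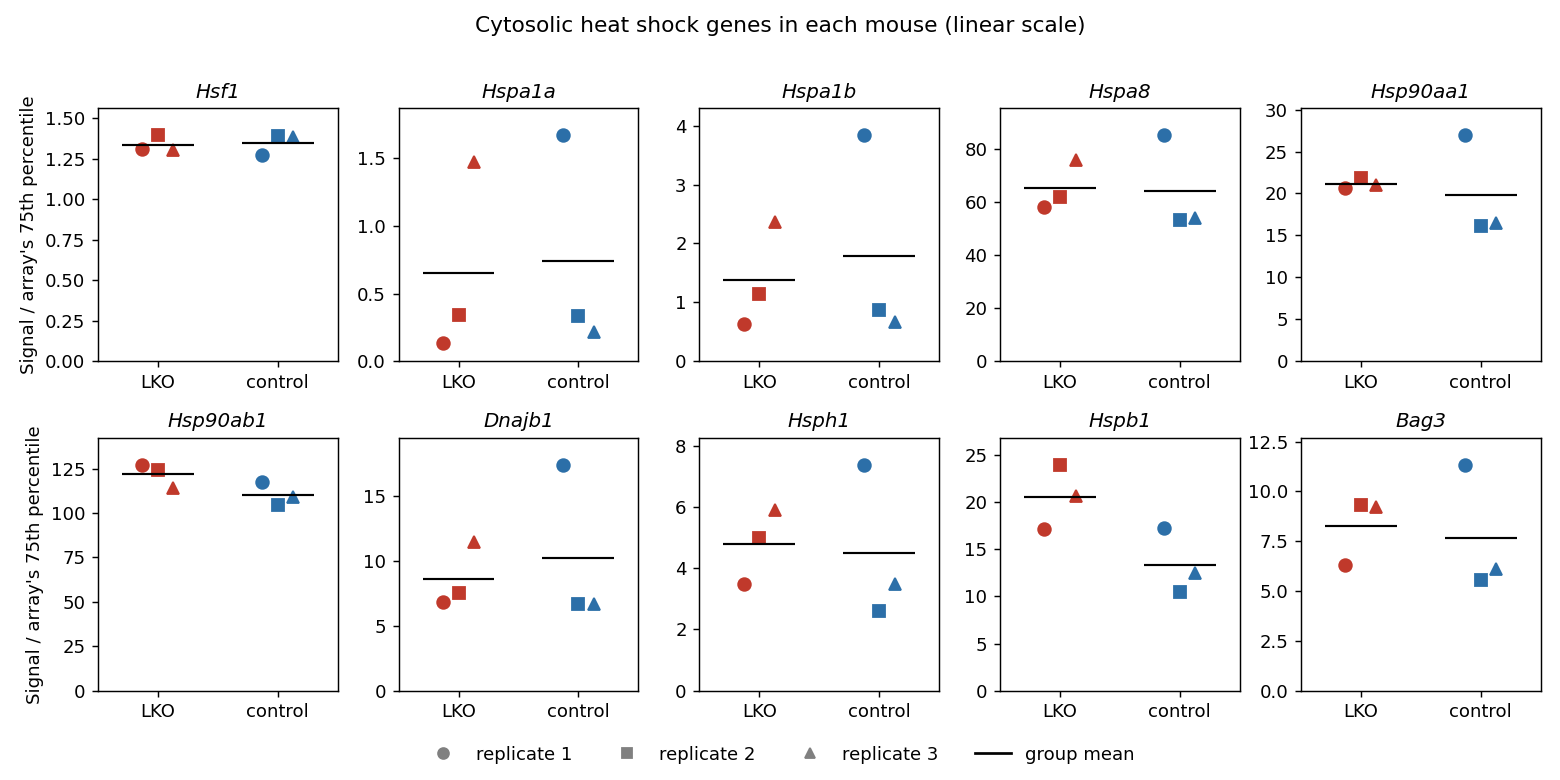
Scaled signal (signal divided by the array's 75th percentile, linear axis from 0) of each of the 10 genes in LKO mice (red) and control mice (blue), with a marker shape for each replicate and a line at the group mean. Control 1 is the highest mouse in 7 of the 10 panels, and LKO and control points overlap in all of them.

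Of the HSP90 genes, Hsp90aa1 encodes the inducible and Hsp90ab1 the constitutive cytosolic form. Hsp90aa1 had scaled signals of 20.7, 21.8 and 21.0 in LKO 1, 2 and 3, against 26.9, 16.2 and 16.5 in control 1, 2 and 3. The LKO mice lay within 1.06-fold of each other, below control 1 and above the other controls, and the controls spanned 1.67-fold. Its log2 change was 0.13 (95% interval from -0.34 to 0.61, limma adjusted p = 0.849), and its other probe gave 0.15. Hsp90ab1 had 127, 124 and 114 in LKO 1, 2 and 3, against 117, 105 and 109 in control 1, 2 and 3. Here LKO 1 and LKO 2 were above every control and LKO 3 was below control 1. The log2 change was 0.14 (95% interval from -0.07 to 0.36, limma adjusted p = 0.603), and the interval was narrower than that of the inducible form.

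Hspb1, the small heat shock protein HSP25 of the mouse, had the largest change and the smallest p among the members. Its scaled signal was 17.1, 23.9 and 20.6 in LKO 1, 2 and 3, against 17.3, 10.4 and 12.5 in control 1, 2 and 3. LKO 2 and LKO 3 were above every control, while LKO 1 fell just short of control 1. The means were 20.6 ± 3.4 in LKO and 13.4 ± 3.5 in control livers (SD, n = 3 each). The log2 change was 0.64 ± 0.21 (SE), which is 1.56-fold higher in LKO. Its 95% interval on the log2 scale ran from 0.14 to 1.14. The unadjusted limma p was 0.0200 and the adjusted p was 0.353, and Hspb1 ranked 801 by p among the 14171 genes. For Hspb1 a two-sided exact permutation test gave p = 0.2, where 3 mice against 3 cannot go below 0.1. Hspb1 is thus reported as not passing, with higher values in LKO under all 16 alternatives (log2 change between 0.39 and 0.84, lowest adjusted p 0.236, highest unadjusted p 0.223).

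**Figure D2:**
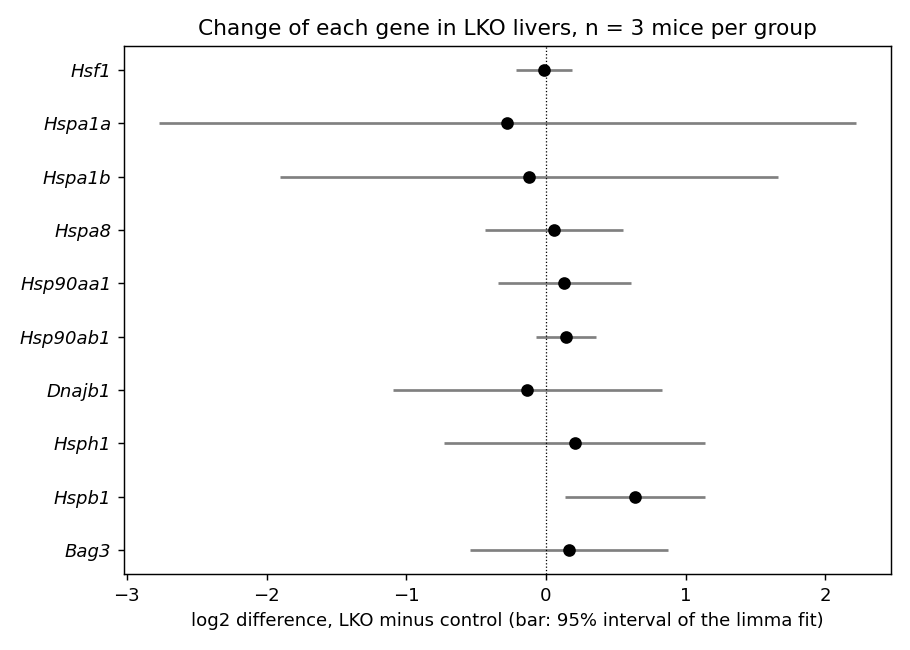
log2 difference of LKO minus control for each gene (point) with the 95% interval of the limma fit (bar), n = 3 mice per group. The interval of Hspb1, from 0.14 to 1.14, is the only one of the 10 that leaves out 0, and that of Hspa1a is the widest.

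For every member but Hsp90ab1 and Hspb1, the pooled SD within groups was larger than the difference between LKO and control on the log2 scale. Control 1 was the highest of the 6 mice for 7 of the 10 members, namely Hspa1a, Hspa1b, Hspa8, Hsp90aa1, Dnajb1, Hsph1 and Bag3, whereas it was the highest for 24.4% of all genes. It was the lowest for Hsf1. Control 2 was the lowest for 7 members, against 16.4% of all genes. Hspa8, Dnajb1 and Hsph1 put the mice in one order, which from lowest to highest was control 2, control 3, LKO 1, LKO 2, LKO 3 and control 1, an order shared by 0.325% of all genes. Hsp90aa1 and Bag3 had that order with LKO 2 and LKO 3 exchanged, as did 0.353% of all genes. These orders and the count for control 2 rest on the brightest probe of each gene. Further Hspa8 probes had control 3 lowest, at 38.6 and 25.2 against 41.5 and 25.9 in control 2. The other measured Hsph1 probe had LKO 1 at 0.959, below control 3 at 0.974. As a log2 difference from the control mean, the mean over the 10 members was -0.32, 0.09 and 0.47 in LKO 1, 2 and 3, and 0.71, -0.35 and -0.36 in control 1, 2 and 3. Hspa1a and Hspa1b, with the widest spread, weigh most in this mean. Relative to the 6-mouse mean of each gene, LKO 1 was at -1.75 for Hspa1a and -0.99 for Hspa1b. For Hspa8, Hsp90aa1, Hsp90ab1, Dnajb1, Hsph1, Hspb1 and Bag3, LKO 1 lay above control 2 and control 3, and for Hsf1 it lay below both. Neither group was uniformly high or low. The SD within groups was smallest for Hsf1, at percentile 8.38 of all genes tested, and Hsp90ab1, at percentile 17.1. Hspa8, although constitutive, was at percentile 86.7, beside 85.5 for the inducible Hsp90aa1 and 87.2 for Hspb1, and the percentiles were 98.2 for Dnajb1, 97.9 for Hsph1 and 95.2 for Bag3.

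**Figure D3:**
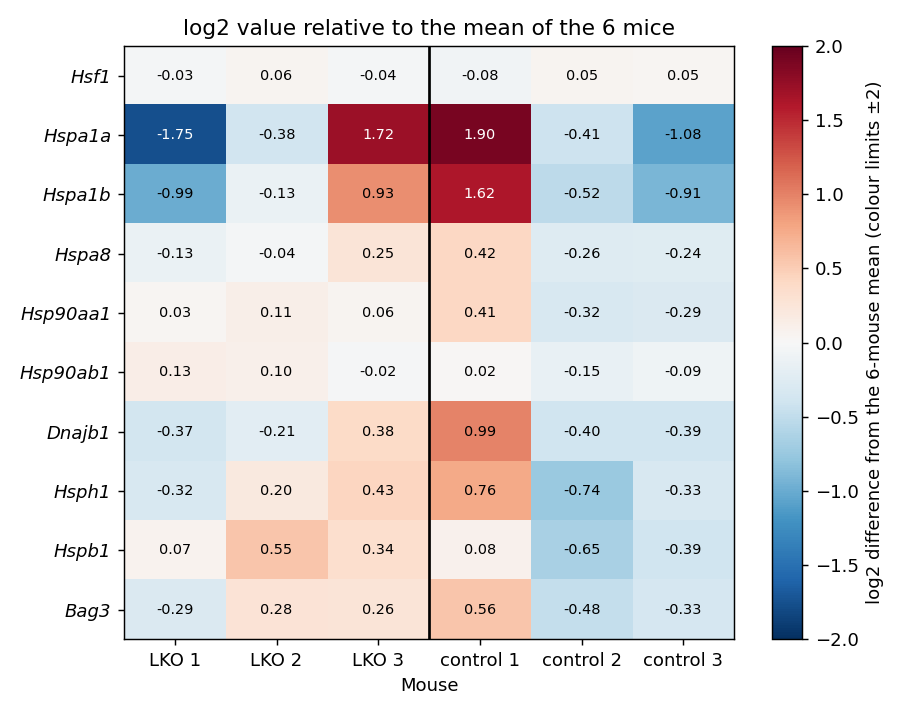
log2 value of each gene in each mouse, relative to that gene's mean over the 6 mice, with LKO mice on the left and control mice on the right. Hspa1a ranges from -1.75 in LKO 1 to 1.90 in control 1, and Hsf1 stays between -0.08 and 0.06.

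The changes depended on which mouse was left out. Without control 1, 9 of the 10 members were higher in LKO livers (52.8% of all genes in that fit), and the median log2 change of the members was 0.43. The groups did not overlap for 7 members, Hspa8, Hsp90aa1, Hsp90ab1, Dnajb1, Hsph1, Hspb1 and Bag3, where 16.8% of all genes were higher without overlap. Control 1 was the highest control for each of these 7, so their count follows in part from the mouse left out and is a description only. Hsph1 counted by a narrow margin, with LKO 1 at 3.50 and control 3 at 3.48. On its other measured probe the groups overlapped without control 1, with LKO 1 at 0.959 and control 3 at 0.974. In that fit 2 members had an unadjusted p under 0.05, against 5.86% of all genes on the higher side. They were Hsp90aa1, with a log2 change of 0.37, and Hspb1, with 0.84, and neither passed over all genes (limma adjusted p = 0.323 and 0.317). Without LKO 1, all 10 members were higher in LKO (51.1% of all genes) and their median was 0.25, but Hsf1 was at only 0.00062 and Dnajb1 at 0.019. Without control 2, the median was -0.04 and 4 of 10 were higher (49.2% of all genes). The median was 0.08 without LKO 2, 0.02 without LKO 3 and 0.01 without control 3. In the fits without LKO 2, control 2 or control 3, the groups overlapped for all 10 members. Leaving out any 1 mouse thus brought 0 members past the adjusted threshold, and nothing in the labels marks control 1 as unlike its group. The array of control 1 had the highest 75th percentile of signal (298, the others between 265 and 290). It also had the smallest share of spots well above background (52.1%, beside 52.5% for LKO 2). Whether this bears on its heat shock values was not tested. Position on the slide was not balanced either, with LKO 2 and LKO 3 in 1 column and the other mice in the other, and with the column in the fit the median of the members was -0.15.

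**Figure D4:**
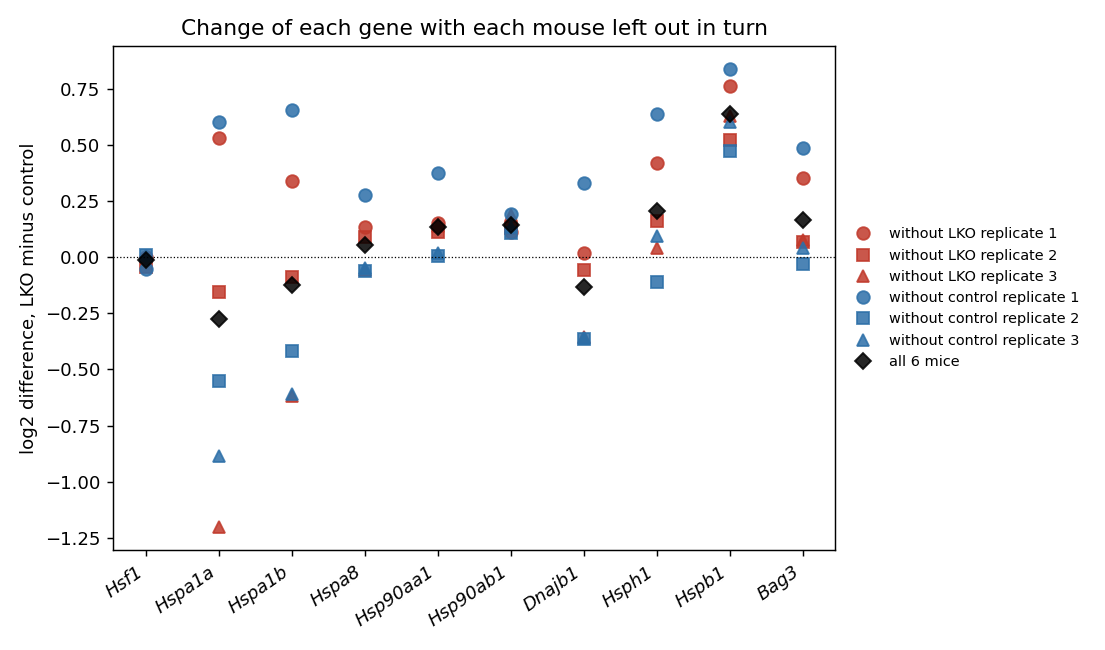
log2 difference of LKO minus control for each gene with all 6 mice (black diamonds) and with 1 mouse left out, red for an LKO mouse and blue for a control mouse, with the shape giving the replicate. Leaving out control 1 (blue circles) moves Hspa1a from -0.28 to 0.60 and Hspb1 from 0.64 to 0.84, and Hsp90ab1 moves least after Hsf1.

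Genes that work with the members were examined as lists, and 0 genes of the chaperone lists passed the adjusted threshold in either direction. Of 14 HSP70 co-chaperones tested, 6 were higher and 8 lower in LKO, with a median log2 change of -0.01. Bag4 (-0.31 ± 0.11, SE), which like Bag3 binds HSP70, was the only one with an unadjusted p under 0.05, followed by Bag2 (-0.27 ± 0.13) and the J-domain gene Dnajb2 (-0.22 ± 0.11). Of 11 HSP90 co-chaperones, 8 were higher and 3 lower, with a median of 0.02. Fkbp5, an immunophilin of steroid receptor complexes and a known glucocorticoid target, had a log2 change of 0.42 ± 0.09 (SE) with groups that did not overlap, but missed the threshold (limma adjusted p = 0.217). Ptges3, the co-chaperone p23, was at 0.13 ± 0.09 and the myosin chaperone Unc45a at 0.20 ± 0.13.

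None of the other relatives tested passed the adjusted threshold. Hsf2, Hsf4 and Hsbp1, which encode further heat shock factors and an HSF1-binding protein, had log2 changes between -0.06 and 0.0060. Of 6 other HSP70 and HSP110 genes tested, 4 were lower, with Hspa2 at -0.40 ± 0.33 (SE), Hspa14 at -0.10 ± 0.10 and Hspa12b at 0.16 ± 0.16. Among 7 other small heat shock genes the median was 0.07, and Hspb8, whose protein works with BAG3, was at 0.36 ± 0.21 (limma adjusted p = 0.580), with Cryaa at 0.18 ± 0.16 and Hspb11 at 0.08 ± 0.08. The 8 subunits of the CCT chaperonin, which folds actin and tubulin, had a median of 0.04, with Cct7 at 0.12 ± 0.09, Cct4 at -0.11 ± 0.08 and Tcp1 at 0.08 ± 0.08. Mitochondrial chaperones had a median of -0.05 over 7 genes, 6 of them lower, with Trap1 at -0.18 ± 0.08, Hspa9 at -0.11 ± 0.08 and Lonp1, a protease, at -0.05 ± 0.09.

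Control 1, the highest mouse for 24.4% of all genes, was the highest for 6 of 7 mitochondrial chaperones, 6 of 11 HSP90 co-chaperones, 4 of 8 CCT subunits and 5 of 14 HSP70 co-chaperones. It was the highest for 1 of 7 other small heat shock genes, 1 of 6 other HSP70 and HSP110 genes and 1 of 3 HSF regulators. Dnaja1, a J-domain gene chosen after its values were seen, had scaled signals of 35.6, 36.5 and 41.1 in LKO 1, 2 and 3, against 52.2, 30.0 and 29.3 in control 1, 2 and 3. That is the pattern of Dnajb1 with a smaller range.

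Chaperones of the endoplasmic reticulum, which answer to other factors than HSF1, had another pattern. All 12 had higher values in LKO, against 50.8% of all genes (median log2 change 0.33). Of these, 5 had an unadjusted p under 0.05, against 5.56% of all genes on the higher side, and 0 passed the adjusted threshold. The list was chosen with earlier results of these data known, so its counts are a description only. Derl3, counted in this list but not itself a chaperone, was at 2.40 ± 0.42 (SE). Hyou1 was at 0.49 ± 0.13 and Hsp90b1, the HSP90 of this compartment, at 0.37 ± 0.12. LKO 2, the highest mouse for 17.7% of all genes, was the highest for all 12 and for 2 of the 10 cytosolic members, Hsf1 and Hspb1. Whether both lists differ in their change was not tested.

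Stress of other kinds was read from further lists. All 12 acute phase genes were higher in LKO with an unadjusted p under 0.05 (5.56% of all genes), and 0 passed the adjusted threshold. The list was chosen with earlier results of these data known, so that count is a description only. Saa2 (3.48 ± 0.38, SE), Saa1 (3.28 ± 0.40) and Hpx (0.80 ± 0.14) had the smallest p. Saa1 and Saa2 are near-identical copies. LKO 3 was highest for all 12 (19.1% of all genes), and control 1, the highest mouse for most cytosolic members, was the lowest for 8 of 12 (16.0% of all genes). The 10 immediate early genes, which answer within minutes to handling or growth factors, had 7 higher and 3 lower, with Egr1 at 1.59 ± 0.73, Dusp1 at -0.98 ± 0.41 and Junb at 0.61 ± 0.26. As a log2 difference from the controls, their mean was -0.40, 0.47 and 0.65 in LKO 1, 2 and 3, against -0.21, 0.0049 and 0.20 in control 1, 2 and 3, so control 1 was the lowest control here and the highest for the heat shock genes. Of 8 neutrophil markers, Cxcr2, Ltf and Ngp were too dim to be tested, and the other 5 had a mean of 0.57, 1.27 and 1.75 in LKO 1, 2 and 3, against -0.32, 0.21 and 0.11 in control 1, 2 and 3. These 5 did not move alike. S100a8 (2.43 ± 0.61, SE), S100a9 (2.21 ± 0.59) and Retnlg (1.23 ± 0.33), chosen after their values were seen, had an unadjusted p under 0.05, while Csf3r was at -0.04 ± 0.10 and Camp at 0.18 ± 0.17. The summed scaled signal of all 8 neutrophil markers, between 68.4 and 81.8 in LKO and between 62.2 and 74.5 in control livers, was mostly that of the brightest probe, Csf3r, at 59.4 to 67.5 in LKO and 60.1 to 71.6 in control livers. All 8 Kupffer cell markers had higher values in LKO (50.8% of all genes). Their median log2 change was 0.21, with 0 past the adjusted threshold. Their summed signal was between 99.9 and 118 in LKO and between 80.4 and 110 in control livers. The part of these lists in the levels of the heat shock genes was not tested.

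Genes that follow body temperature or time of day were set beside the members because Hspa1b and its relatives are known to follow both. Rbm3, an RNA-binding protein gene that rises in the cold, had scaled signals of 5.01, 5.08 and 6.20 in LKO 1, 2 and 3, against 3.68, 4.22 and 4.01 in control 1, 2 and 3, a log2 change of 0.45 ± 0.12 (SE, limma adjusted p = 0.267). Cirbp, its cold-inducible relative, was chosen after its values were seen and had 3.62, 2.67 and 1.93 in LKO 1, 2 and 3, against 2.31, 2.99 and 3.87 in control 1, 2 and 3. LKO 3 and control 1, the mice with the most Hspa1a, thus had the least Cirbp, but Cirbp did not differ past the threshold (log2 change -0.17 ± 0.27) and Rbm3 did not share that pattern. The clock genes Per1 (0.79 ± 0.46) and Per2 (-0.22 ± 0.24) did not pass. The sources used here do not give the hour of death.

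**Figure D5:**
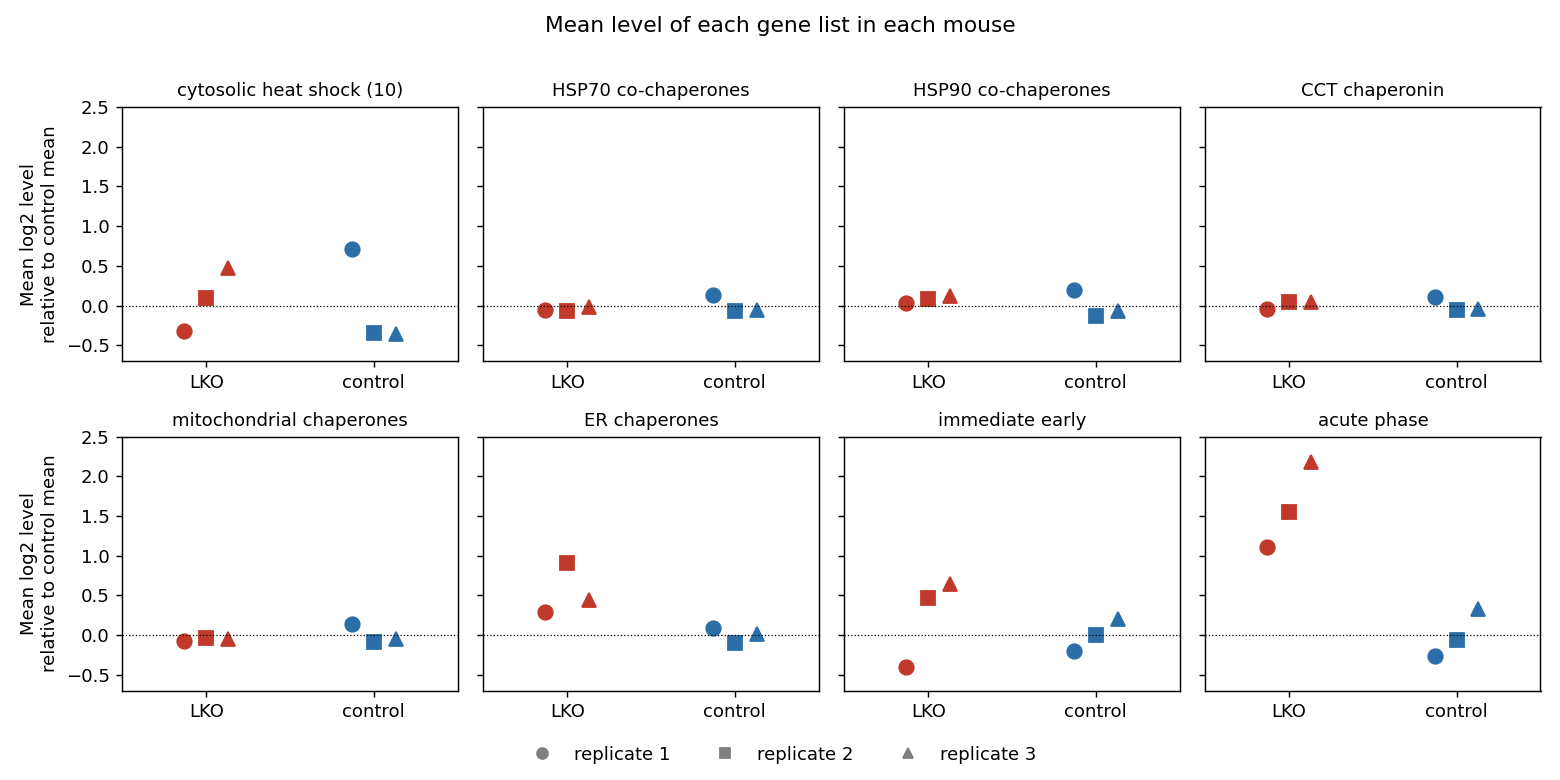
Mean log2 level of the tested genes of each list in each mouse, relative to the control mean, for LKO mice (red) and control mice (blue), with a marker shape for each replicate. For the 10 cytosolic heat shock genes the highest mouse is control 1 at 0.71, whereas all 3 LKO mice lie above every control for the ER chaperones and the acute phase genes. Hspa1a and Hspa1b weigh most in the mean of the cytosolic genes. Derl3, not itself a chaperone, weighs most in the mean of the ER list. In the summed scaled signal of the ER list, LKO 1 (384) lay below control 1 (390).

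Among the other genes tested, those most like the members were found by Pearson's r over the 6 mice with the mean of the 10 members, as a description from few points that share their arrays. Hspa1a and Hspa1b, with the widest ranges, weigh most in that mean. The 5 highest were Rpl7a (r = 0.997), Cybc1 (r = 0.997), Gm8580 (r = 0.991), Eif4h (r = 0.988) and Rpl17 (r = 0.988), with Spearman's rho between 0.771 and 0.943. Rpl7a and Rpl17 encode proteins of the large ribosomal subunit, have near-identical copies and are uncertain for that reason, and Eif4h encodes a translation initiation factor. Their own ranges were small. Rpl7a had scaled signals of 120, 130 and 137 in LKO 1, 2 and 3, against 143, 120 and 119 in control 1, 2 and 3, and the log2 changes of the 5 genes between LKO and control lay between -0.0011 and 0.02.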

How the data were processed

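Liver RNA of each mouse was labelled with Cy3 and hybridised to 1 array. The deposited intensity values are background-corrected processed signals that the authors obtained with Agilent Feature Extraction 11.5.1.1, per the file headers. The authors' deposited value table held the same intensity values multiplied by 1 constant per array (2.08 to 2.48). It was linear, not centred and ran in the same direction, and the sources used here do not say how the constants were chosen.

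Control spots and outlier spots were left out, spots of a probe were averaged, and log2 signals were set relative to each array's 75th percentile. Accessions were named through the RefSeq gene table of GRCm38.p6, which gave 32994 of 56605 probes a symbol. A gene took its brightest probe and entered the test where all 3 arrays of either group had it well above background, which held for 14171 genes. limma 3.58.1 (R 4.3.3) was fitted to all of them, with Benjamini-Hochberg adjustment. The same fit was also run on simulated data. The planned normexp alternative used median spot signals, in place of mean signals. The members and lists were chosen with earlier results of these data known. Related genes were named as the up to 3 of smallest p in each list, besides the 5 genes most like the members. Dnaja1, Cirbp and the neutrophil markers fall outside that rule.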

Additional observations from a re-analysis of the deposited data

How the results depend on the processing

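Over 16 alternatives, 0 members passed the limma adjusted threshold in any. The number of all genes that passed, 2 as reported, was 16 with normexp, 13 with trend and robust eBayes, and 1 each with no filter on dim probes, with probes well above background on all 6 arrays, and with the slide column in the fit, an alternative chosen after seeing the data. Leaving out 1 mouse gave 1 to 15 genes, 15 without LKO 1 and 4 without control 1. The median log2 change of the members ran from -0.04 to 0.43 when 1 mouse was left out, and from -0.15 with the slide column, which leaves LKO 1 alone to be set against the controls, to 0.10 otherwise. Signs turned for 7 members, and the cause was not tested. With 1 mouse left out, Hsf1 ran from -0.055 to 0.0084, Hspa1a from -1.20 to 0.60, Hspa1b from -0.62 to 0.66, Hspa8 from -0.059 to 0.28, Dnajb1 from -0.36 to 0.33, Hsph1 from -0.11 to 0.64 and Bag3 from -0.029 to 0.49. Hspa8 was -0.0047 with normexp, and with the slide column Hspa8 was -0.10, Hsph1 -0.22 and Bag3 -0.20. Hsp90aa1, Hsp90ab1 and Hspb1 kept their sign throughout. Replicate numbers did not pair the mice, since the deviations of same-numbered mice correlated at 0.045, -0.055 and -0.070, and with the replicate block 0 members and 3 genes passed, with Hspb1 at p = 0.0457 and adjusted p = 0.524 in limma. The number of arrays limits these results. With 3 mice per group, the 95% interval ran from -2.77 to 2.22 for Hspa1a but from -0.21 to 0.18 for Hsf1. What sets the spread between mice was not tested.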
